A study of Danio rerio with 11 samples.

Results

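The lens crystallins and fibre proteins were read from whole-embryo RNA-seq of single zebrafish embryos. They were taken as every gene of the deposited tables whose name begins with crya, cryb or cryg, together with mipa, mipb and the lim2 and bfsp genes. This gave 61 of 14473 genes, with 3 alpha crystallins, 12 beta crystallins, 38 gamma crystallins and 8 fibre genes (mipa, mipb, lim2.1 to lim2.5 and bfsp2). The 6 mutant embryos (replicates 1, 3, 4, 5, 6 and 7) are labelled rfx4 mutant, and the 5 sibling embryos (replicates 2, 3, 4, 7 and 8) are labelled control. The series design names the rfx4 allele uw8013, an incross of its carriers, and sorting by phenotype. Whether a given sibling carried 1 copy of the allele or none is not stated. The growth protocol instead names parents that carried zic2 mutations, so the labels disagree on the cross. All embryos were raised at 29 °C to about 25 hours post fertilisation (hpf), and each library came from 1 embryo.

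The vertebrate lens is built from an epithelium whose cells exit the cell cycle, elongate into fibre cells and fill with crystallins. Alpha crystallins are small heat shock proteins that act as chaperones, and beta and gamma crystallins are related structural proteins that give the lens its refractive power. Gamma crystallins of the M type are characteristic of fish lenses and accumulate in fibre cells. Mip (aquaporin 0) is the water channel of fibre cell membranes, Lim2 is another fibre membrane protein, and Bfsp2 is a subunit of the beaded filament, the intermediate filament of fibre cells. The comparison of mutants with siblings asks whether these genes differ in embryos with the mutant phenotype, and the spread between embryos of about 1 age was described beside it. In whole-embryo RNA, fewer lens cells and less RNA per lens cell cannot be told apart.

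Libraries held 16238368 to 21104811 counts. The targeted gene rfx4 had 589 to 942 counts in mutants and 857 to 1383 counts in siblings, so the groups overlapped. It was lower in mutants on average, with an edgeR log2 fold change of −0.53 ± 0.14 (SE). Its adjusted p was 0.475 by edgeR and 0.0996 by DESeq2, and an exact permutation test gave p = 0.0195. The lens epithelium genes foxe3 and pitx3 were present in every embryo, at 92 to 167 and 416 to 694 counts. Of the libraries, 3 stood apart from the rest over all 12301 genes tested. Mutant 6 had the lowest median correlation with the other libraries (0.974), and mutant 7 and sibling 3 (0.978 and 0.979) were each nearest to the other, across the groups. Values without mutant 6 are given beside the named genes that it moved by over 1.5 times.

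Beta crystallins made up most of the lens signal at this age. In TPM, a scale that corrects for gene length and allows genes to be compared, they held 73.1% of the summed lens level on average over the 11 embryos (range 69.8 to 76.1%). Gamma crystallins held 18.3%, the fibre genes 8.31% and alpha crystallins 0.285%. By gene, cryba4 was the highest, with a mean of 107 ± 23.8 TPM over the 6 mutants and 122 ± 10.3 TPM over the 5 siblings (± SD, here and below). Below it came crybb1, at 95.6 ± 27.95 TPM in mutants and 92.1 ± 25.3 TPM in siblings, then cryba1b, crybb1l2, cryba2b and cryba1l1. Each of these genes overlapped the next in the order in its range over the embryos. The most abundant gamma crystallin was crygn2, at 35.7 ± 7.60 TPM in mutants and 40.2 ± 2.55 TPM in siblings, and the most abundant fibre gene was mipa, at 21.1 ± 7.15 TPM in mutants and 23.2 ± 2.99 TPM in siblings. The crygm2d genes were each low, with crygm2d8 highest at 12.4 TPM over all embryos, but together they reached 31.6 to 90.7 TPM in mutants and 48.3 to 96.6 TPM in siblings.

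**Figure D1:**
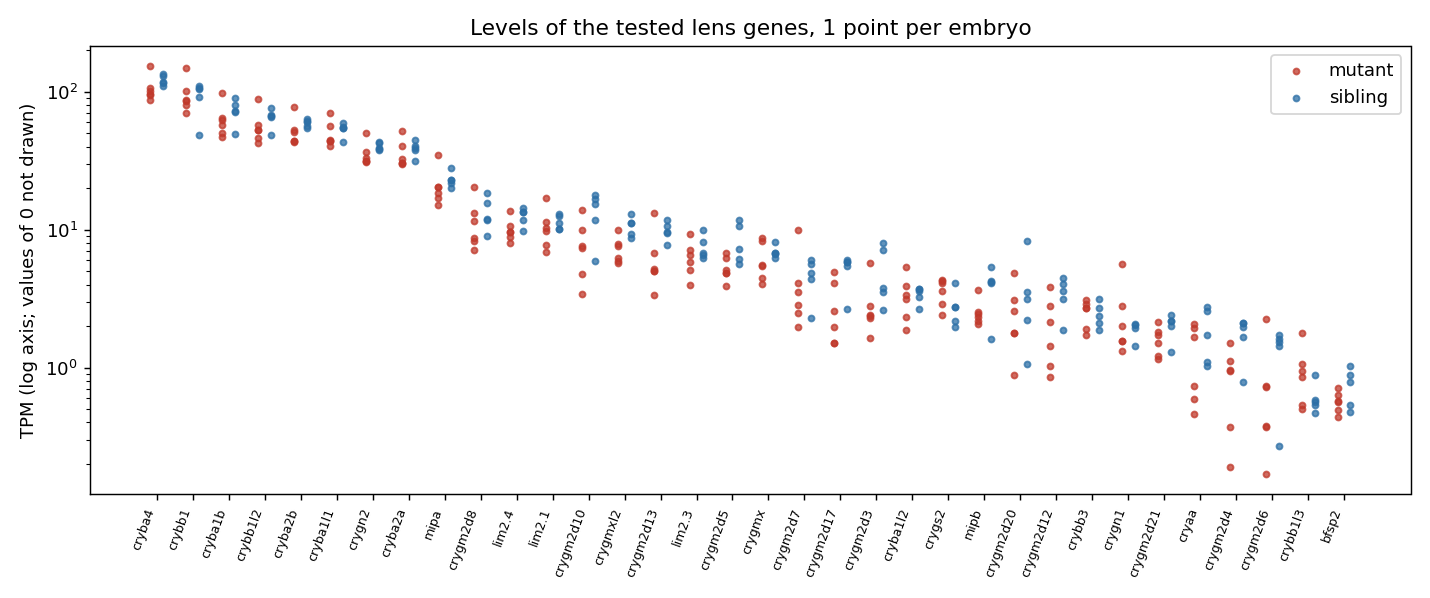
Levels in TPM (log axis) of the 34 lens genes that passed the low-count filter, ordered by their mean, with 1 point per embryo and mutants to the left of siblings within each gene. The upper end holds 7 of the 10 tested beta crystallins, crygn2 and mipa, and most single crygm2d genes, cryaa and bfsp2 lie toward the lower end.

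Of the 61 genes, 7 had 0 counts in all 11 embryos (crygm1, crygm2a, crygm2b, crygm2d11, crygm2f, crygm6 and crygm7), which allows a level of up to 0.142 to 0.192 CPM in a library (3 counts, counting error only). CPM is the count per 1000000 of the normalised library. A further 20 genes were detected at 2 to 108 counts in total and were too low to test. They include the alpha crystallins cryaba and cryabb, the beta crystallins cryba1a and crybb2, the fibre genes lim2.2 and lim2.5, and 6 crygm2d genes. The filter on low counts left 34 genes, which are 1 alpha, 10 beta, 17 gamma and 6 fibre genes. This filter looks at whether a gene reaches a minimum in as many libraries as the smaller group has, so the 34 are not all of the lens genes. A gene near the minimum can pass mainly through the group in which it is higher. The lowest mean count of a tested gene was 7.73 (crygm2d6), and the highest of an untested gene was 9.82 (cryabb).

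Lens transcripts were below those of 4 of the 5 siblings in 5 of the mutants, and above those of every other embryo in mutant 6. Summed over all 61 genes, the level was 279 CPM in the lowest mutant, 335 CPM at the mutant median and 546 CPM in mutant 6, and it was 421, 321, 414, 442 and 459 CPM in siblings 2, 3, 4, 7 and 8. Apart from mutant 6 the highest mutant had 362 CPM, which lay above sibling 3 and below the other siblings. The groups therefore overlapped through mutant 6 and sibling 3. On average the 6 mutants had 360 ± 96.3 CPM, against 411 ± 53.7 CPM for the 5 siblings.

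By the edgeR quasi-likelihood test over all 12301 genes, 0 of the 34 tested lens genes passed an adjusted p of 0.05, and 0% of all genes did. By DESeq2 0 lens genes passed either, where 0.342% of all genes did. The smallest adjusted p among the lens genes was that of crygmxl2, at 0.495 by edgeR and 0.136 by DESeq2. At an unadjusted edgeR p under 0.05, 10 of the 34 were lower in mutants and 0 were higher, against 3.06% of all tested genes lower and 3.79% higher (6.85% in either direction). With a filter that ignores the groups (a mean count of at least 10), the count was 9 of 32. The median log2 fold change of the 34 was −0.23, with 29 at lower and 5 at higher fitted values, where 49.8% of all tested genes had lower ones and their median was 0.0009. The 34 genes were read from the same libraries, where mutant 6 was the highest embryo in 17 of them and mutant 5 the lowest in 13. These counts are therefore not counts of independent observations. Of the 10 genes lower at the unadjusted p, 8 were gamma crystallins, 2 were fibre genes and 0 were beta crystallins. The count varied with the embryo left out, and each such fit also has fewer embryos. It was 4 without mutant 3 or sibling 4, and 5 without mutant 5, mutant 7, sibling 7 or sibling 8. It was 6 without mutant 1 or sibling 2, 7 without mutant 4 and 10 without sibling 3. Without mutant 6 it was 18 of 31, where 3.22% of all genes were lower at that p. In that fit 0.196% of all genes, 0 lens genes among them, passed the adjusted threshold. There 29 of 31 lens genes had lower fitted values, against 49.9% of all genes. Leaving out the mutant with the most lens RNA had to lower the mutant mean, so the last value is no independent support.

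**Figure D2:**
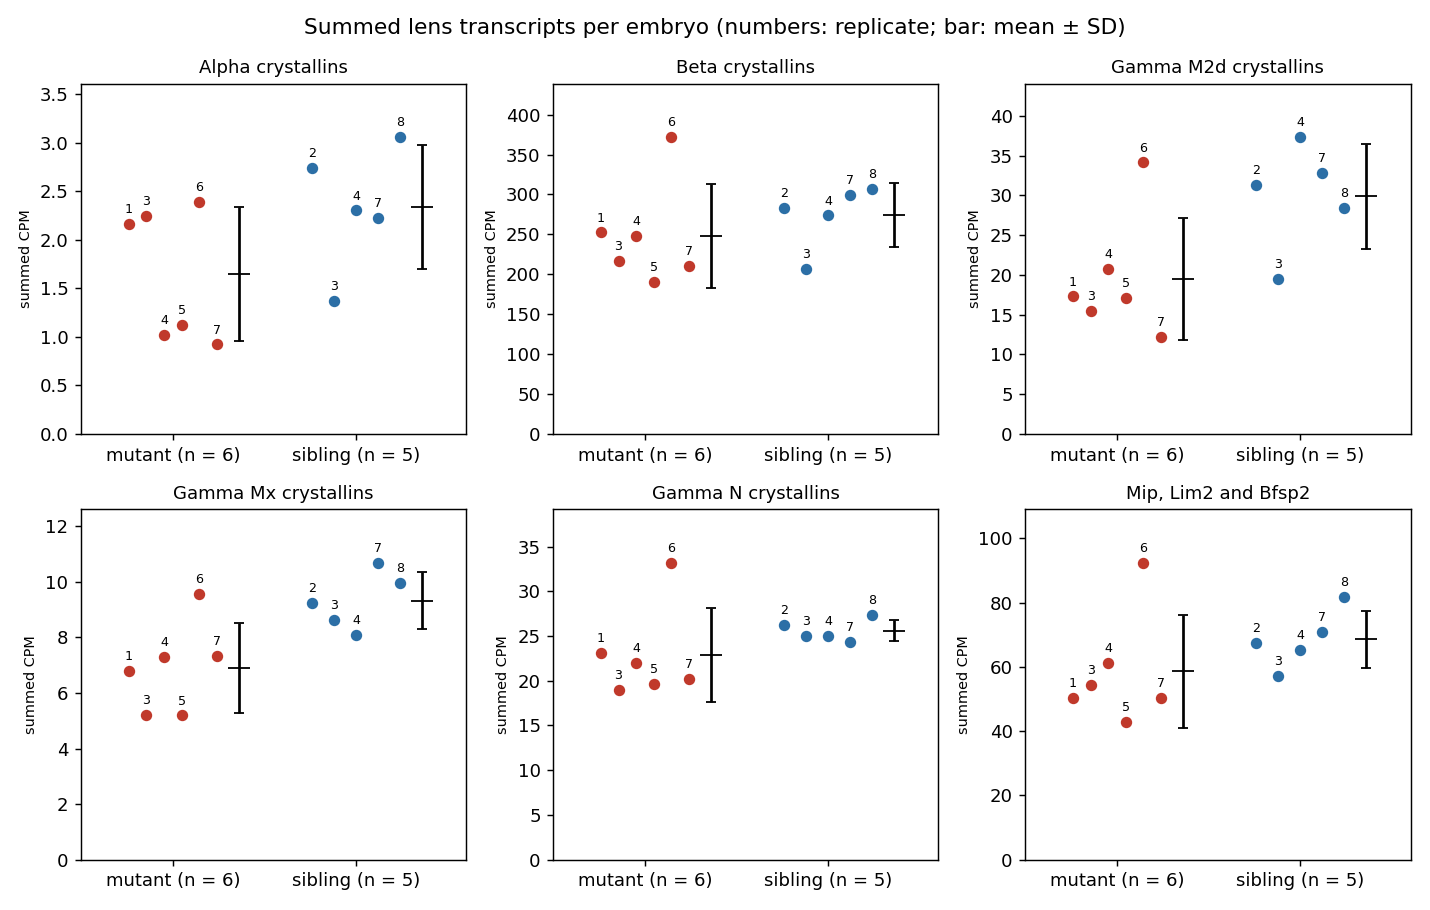
Summed CPM of each lens class per embryo, with mutants (n = 6) left of siblings (n = 5), numbers giving the replicate and bars the mean ± SD. Mutant 6 is the highest of all embryos for the beta, gamma N and fibre sums, and sibling 3 is the lowest sibling for the alpha, beta, gamma M2d and fibre sums.

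The beta crystallins, which make up the bulk of the lens transcripts, overlapped widely. Their sum was 190 CPM in the lowest mutant, 232 CPM at the median and 372 CPM in mutant 6, and 283, 206, 274, 299 and 307 CPM in siblings 2, 3, 4, 7 and 8. The log2 difference of the sums was −0.16, within the spread between embryos of a group (SD 0.30), and −0.29 without mutant 6. Of the 10 tested genes, 7 had lower and 3 higher fitted values (median −0.14), and 0 had an unadjusted p under 0.05. Without mutant 6, 6 of 9 were lower at that p, against 3.22% of all genes in the same fit. Mutant 6 was the highest embryo in 9 of the 10 genes, so leaving it out had to lower their mutant means. This count is therefore no independent support.

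The most abundant beta gene by length-corrected level, cryba4, which encodes an acidic beta crystallin, had 15.99 CPM in the lowest mutant, 20.05 CPM at the median and 30.3 CPM in mutant 6. Its sibling values were 24.7, 22.4, 22.7, 23.6 and 25.7 CPM. The 5 other mutants all lay below the lowest sibling, and mutant 6 lay above the highest. Its log2 fold change by edgeR was −0.19 ± 0.13 (SE, adjusted p = 0.810), and the exact permutation test (two-sided, as all below) gave p = 0.167. Without mutant 6 it was −0.33 ± 0.08 (adjusted p = 0.240), and without mutant 5 −0.12.

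Its relative cryba2b showed the same arrangement. It had 19.0 CPM in the lowest mutant, 21.6 CPM at the median and 34.7 CPM in mutant 6, and 28.4, 25.5, 27.99, 26.9 and 27.2 CPM in siblings 2, 3, 4, 7 and 8. The siblings differed little among themselves (coefficient of variation, CV, 4.14%), and the 5 other mutants lay below all of them. On the log2 scale the difference was −0.21 ± 0.14 (SE), and −0.35 ± 0.08 without mutant 6, with edgeR adjusted p of 0.806 and 0.204. For cryba1b (−0.23 ± 0.19 SE) and crybb1l2 (−0.23 ± 0.17 SE), sibling 3 lay among the mutants, at 34.1 and 40.2 CPM, while the other siblings had 46.6 to 59.7 and 53.8 to 60.9 CPM. Both were at −0.39 without mutant 6 and at −0.15 without mutant 5, and cryba1b was at −0.15 without sibling 8 as well.

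The basic beta crystallin gene crybb1 had 41.5 CPM in the lowest mutant, 52.8 CPM at the median and 88.4 CPM in mutant 6, and 62.8, 30.4, 55.9, 66.6 and 66.0 CPM in siblings 2, 3, 4, 7 and 8. Sibling 3 was the lowest of all 11 embryos for this gene. A log2 fold change of 0.02 ± 0.21 (SE) turned to −0.13 without sibling 3 and to −0.14 without mutant 6. The paralog crybb1l3 was the beta gene with the lowest p and was higher in mutants on average, at 0.797 ± 0.388 CPM against 0.524 ± 0.142 CPM in siblings. The difference of 0.60 ± 0.33 (SE, log2) had an edgeR adjusted p of 0.769, and each library held only 7 to 25 counts of it.

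On the log2 scale the gamma sum differed more than the beta and fibre sums. The alpha sum differed by −0.57 (SD within groups 0.56), more than the gamma sum, but rests on 16 to 54 counts in a library. Among the gamma subclasses with more than a few counts the crygm2d sum differed most, though differences between classes were not tested. For the gamma Mx sum the difference was −0.46 (SD within groups 0.27), and for the gamma N sum −0.19 (SD 0.23). In each of these 2 sums 5 mutants lay below all siblings, against 4 in the crygm2d sum. The order of the sums did not hold for each gene, as crygm2d8 was at −0.24 and the gamma Mx gene crygmxl2 at −0.59. All gamma genes summed to 42.0 CPM in the lowest mutant, 46.7 CPM at the median and 79.0 CPM in mutant 6, and to 68.1, 55.6, 72.5, 69.8 and 66.9 CPM in siblings 2, 3, 4, 7 and 8. The 5 other mutants lay below all siblings, and mutant 6 lay above them. The log2 difference of these sums was −0.41 (SD within groups 0.28), and −0.54 without mutant 6. In the gene table of assembly GRCz12tu the crygm2d genes lie side by side, and 21 of the 23 genes between the first and the last carry crygm2d names. Neighbouring copies of one family may share reads. Neither the likeness of the copies nor the sharing was measured here, so the value of a single crygm2d gene is uncertain and their sum is given first. The sum over the 19 crygm2d genes of the table was 12.2 CPM in the lowest mutant (mutant 7), 17.2 CPM at the median and 34.1 CPM in mutant 6. In siblings 2, 3, 4, 7 and 8 it was 31.3, 19.5, 37.3, 32.8 and 28.4 CPM. Mutants other than mutant 6 reached at most 20.7 CPM, which only sibling 3 fell below, and mutant 6 lay within the range of the siblings. The 6 mutants averaged 19.5 ± 7.70 CPM, and the 5 siblings 29.9 ± 6.63 CPM. The log2 difference was −0.66, larger than the spread within groups (SD 0.44). It stayed between −0.64 and −0.63 with total-count scaling and with TPM, was −0.68 without mutant 7 and sibling 3, and ran from −0.84 to −0.54 when each embryo was left out.

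Of the 19 crygm2d genes, 12 passed the filter. These had lower fitted values in mutants, with a median log2 fold change of −0.73, and 7 had an unadjusted edgeR p under 0.05 where 3.06% of all genes were lower at that p. These 7 were crygm2d10, crygm2d12, crygm2d13, crygm2d17, crygm2d3, crygm2d4 and crygm2d5. With the filter that ignores the groups it was 6 of 10, since crygm2d4 and crygm2d6, with mean counts of 8.64 and 7.73, drop out. These 2 genes averaged 0.321 and 0.326 CPM in mutants and 0.675 and 0.578 CPM in siblings. Their log2 fold changes of −1.03 and −0.82 are part of the median above, which was not taken without them. Of the 6 genes detected but not tested, crygm2d15 averaged 0.179 CPM in mutants and 0.136 CPM in siblings, and the other 5 averaged less in mutants. The number was 2 of 12 without sibling 4, 3 of 12 without mutant 3, mutant 5, mutant 7 or sibling 7, and 4 of 12 without mutant 1, mutant 4, sibling 2 or sibling 8. It was 7 of 12 without sibling 3 and 7 of 10 without mutant 6. These genes come from the same libraries and may share reads, so their number is not a number of independent observations.

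Among them crygm2d10 had 1.36 CPM in the lowest mutant, 2.81 CPM at the median and 5.38 CPM in mutant 6, and 6.93, 2.41, 6.61, 6.40 and 4.65 CPM in siblings 2, 3, 4, 7 and 8. The lowest mutant and the lowest sibling were mutant 7 and sibling 3, the pair of libraries nearest to each other. By edgeR the log2 fold change was −0.83 ± 0.34 (SE, adjusted p = 0.709), with an exact permutation p of 0.0671. The gene crygm2d5 was the crygm2d gene with the lowest edgeR p. It had 1.302 CPM in the lowest mutant, 1.59 CPM at the median and 2.30 CPM in the highest, here mutant 4, and 2.31, 2.08, 3.84, 3.62 and 1.81 CPM in siblings 2, 3, 4, 7 and 8. Mutant 6, at 1.61 CPM, lay among the other mutants for this gene. Its log2 fold change was −0.67 ± 0.23 (SE, edgeR adjusted p = 0.634, exact permutation p = 0.0195). The most abundant of them, crygm2d8, had 2.82 CPM in the lowest mutant, 4.09 CPM at the median and 7.95 CPM in mutant 6, and 7.20, 3.68, 6.26, 4.90 and 4.70 CPM in siblings 2, 3, 4, 7 and 8. Here the groups overlapped widely, and the log2 fold change was −0.24 ± 0.27 (SE, edgeR adjusted p = 0.890). It was −0.47 without mutant 6, −0.15 without mutant 3 or mutant 5, −0.12 without mutant 7 and −0.10 without sibling 2.

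The other gamma crystallins differed in direction. The gene crygmxl2, a gamma Mx crystallin, had the lowest p of all lens genes. It had 2.95 CPM in the lowest mutant, 3.54 CPM at the median and 5.02 CPM in mutant 6, and 5.64, 4.96, 4.55, 6.12 and 6.63 CPM in siblings 2, 3, 4, 7 and 8. The 5 other mutants lay below all siblings, and mutant 6 lay above siblings 3 and 4. The difference was −0.59 ± 0.16 (SE, log2), the edgeR adjusted p 0.495 and the exact permutation p 0.0108, the lowest of the 34 such tests, in which 6 against 5 embryos can give no p under 0.00216. Its relative crygmx was at −0.22 ± 0.21 (SE), and at −0.35 without mutant 6.

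The gene crygn2, a gamma N crystallin, had 18.3 CPM in the lowest mutant, 20.2 CPM at the median and 30.4 CPM in mutant 6, and 25.3, 24.3, 23.97, 24.3 and 26.3 CPM in siblings 2, 3, 4, 7 and 8. As with cryba4 and cryba2b, mutant 6 lay above all siblings and the other mutants below them. Its difference was −0.20 ± 0.12 (SE, log2), and −0.32 ± 0.07 without mutant 6, with edgeR adjusted p of 0.788 and 0.124. Its paralog crygn1 was at 0.70 ± 0.54 (SE), and at 0.30 ± 0.50 without mutant 6, with 0 counts in sibling 7, where 3 counts would be 0.167 CPM, and 2.81 CPM in mutant 6. The gamma S gene crygs2 was at 0.34 ± 0.23 (SE), and neither had an unadjusted p under 0.05.

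**Figure D3:**
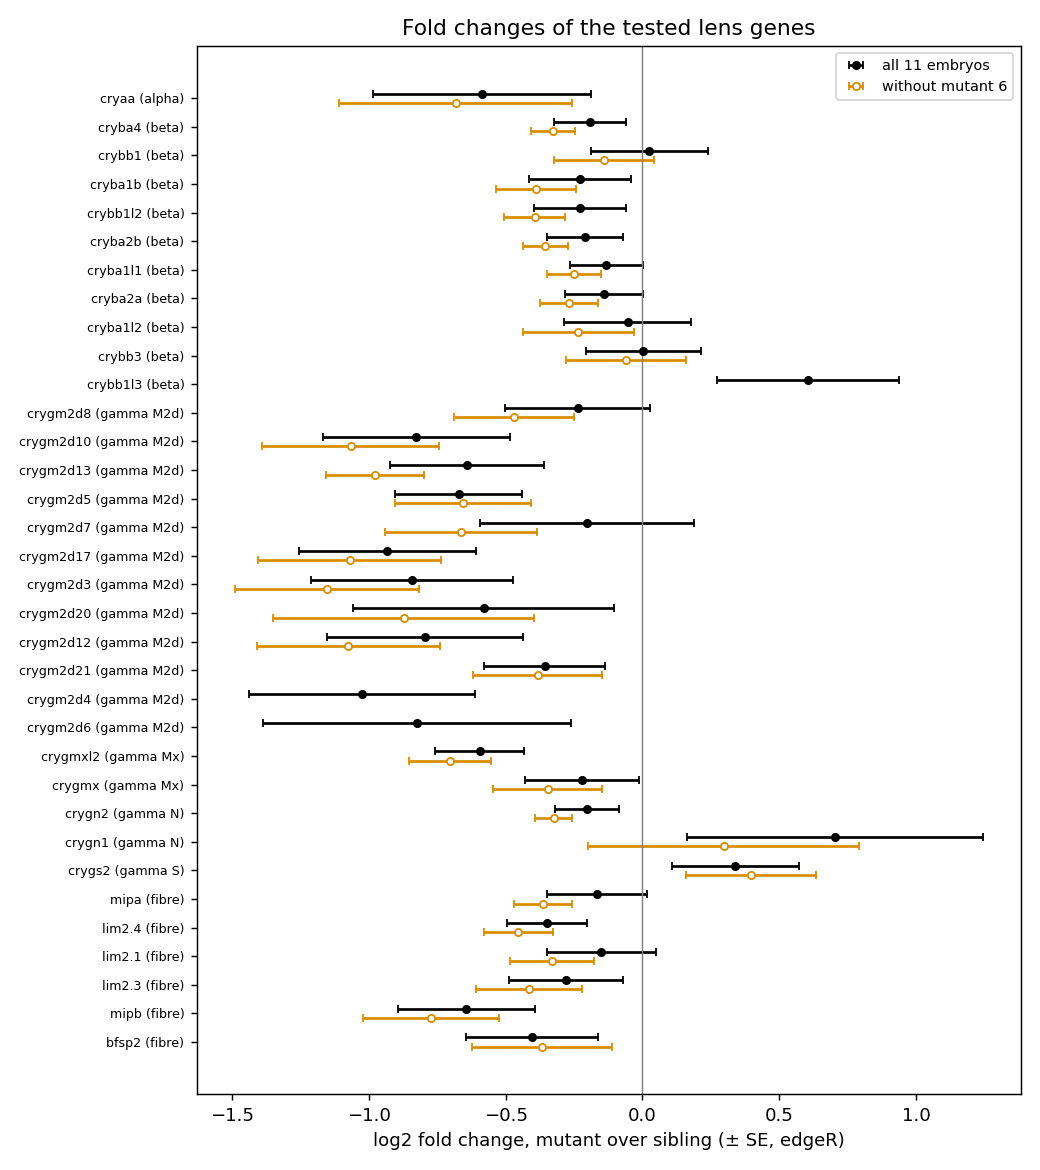
Log2 fold changes (mutant over sibling, ± SE, edgeR) of the 34 tested lens genes, for all 11 embryos (filled) and without mutant 6 (open), where 3 low genes were no longer tested. With all 11 embryos the 12 tested crygm2d genes and the 6 tested fibre genes lie below 0, and most values move further down without mutant 6.

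The 6 tested fibre genes all had lower fitted values in mutants (median −0.31), and 2 of them, mipb and lim2.4, had an unadjusted edgeR p under 0.05. With the replicate number as a block, which compares only embryos 3, 4 and 7 of each group, bfsp2 was not lower. The sum of the 6 genes, with lim2.2 and lim2.5, was 42.8 CPM in the lowest mutant, 52.4 CPM at the median and 92.4 CPM in mutant 6. In siblings 2, 3, 4, 7 and 8 it was 67.4, 57.3, 65.4, 70.9 and 81.8 CPM. The log2 difference was −0.26 (SD within groups 0.31), and −0.40 without mutant 6. The main aquaporin gene of the lens at this age was mipa, with 28.3 CPM in the lowest mutant, 35.96 CPM at the median and 66.0 CPM in mutant 6, and 43.3, 39.8, 42.0, 46.4 and 53.4 CPM in siblings. Here 4 mutants lay below every sibling, mutant 4 lay above sibling 3, and mutant 6 was the highest embryo. By edgeR the groups differed by −0.17 ± 0.18 (SE, log2), with an adjusted p of 0.887. The difference was −0.36 ± 0.11 without mutant 6 (edgeR adjusted p = 0.426), −0.08 without mutant 5 and −0.10 without sibling 8.

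The second aquaporin gene, mipb, showed a different pattern. It had 2.84 CPM in the lowest mutant, 3.45 CPM at the median and 5.14 CPM in mutant 6, and 5.91, 2.36, 5.96, 6.29 and 7.65 CPM in siblings 2, 3, 4, 7 and 8. Every mutant lay below 4 of the siblings, and sibling 3 was the lowest of all embryos. The edgeR log2 fold change of −0.64 ± 0.25 (SE) had an adjusted p of 0.676 and an exact permutation p of 0.0909. Without mutants 6 and 7 and sibling 3 it was −0.95 (edgeR adjusted p = 0.0197), a removal chosen after the values were seen that takes out the highest mutant and the lowest sibling.

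The membrane protein gene lim2.4 had 4.61 CPM in the lowest mutant, 5.58 CPM at the median and 8.01 CPM in mutant 6, and 7.79, 6.00, 8.09, 7.40 and 8.39 CPM in siblings. Its log2 fold change was −0.35 ± 0.15 (SE, edgeR adjusted p = 0.711, exact permutation p = 0.0411). Its paralogs lim2.1 and lim2.3 were at −0.15 ± 0.20 and −0.28 ± 0.21 (SE). Of these lim2.1 was at −0.33 without mutant 6, −0.05 without mutant 5 and −0.08 without mutant 7, and lim2.3 at −0.17 without mutant 5 or sibling 8. The genes lim2.2 and lim2.5 had at most 8 and 2 counts in a library. The beaded filament gene bfsp2 was near the detection limit, with 8 to 20 counts in a library, and was at −0.40 ± 0.24 (SE, edgeR adjusted p = 0.793). It was at −0.27 without sibling 8 and at 0.06 with the replicate number as a block, which compares only embryos 3, 4 and 7 of each group. Mutant 6, with 9 counts of bfsp2, did not stand out for this gene.

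The alpha crystallins were barely detected. The chaperone gene cryaa had 0.448 CPM in the lowest mutant, 1.07 CPM at the median and 1.82 CPM in the highest, here mutant 3, and 2.31, 1.04, 0.945, 1.67 and 2.49 CPM in siblings 2, 3, 4, 7 and 8. These levels rest on 7 to 44 counts in a library. The embryos spread widely within both groups, with a CV of 56.9% in mutants and 41.9% in siblings, and the groups overlapped. Its log2 fold change was −0.59 ± 0.40 (SE, edgeR adjusted p = 0.808). The paralog cryabb had 5 to 23 counts in a library, and cryaba had 0 to 2.

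**Figure D4:**
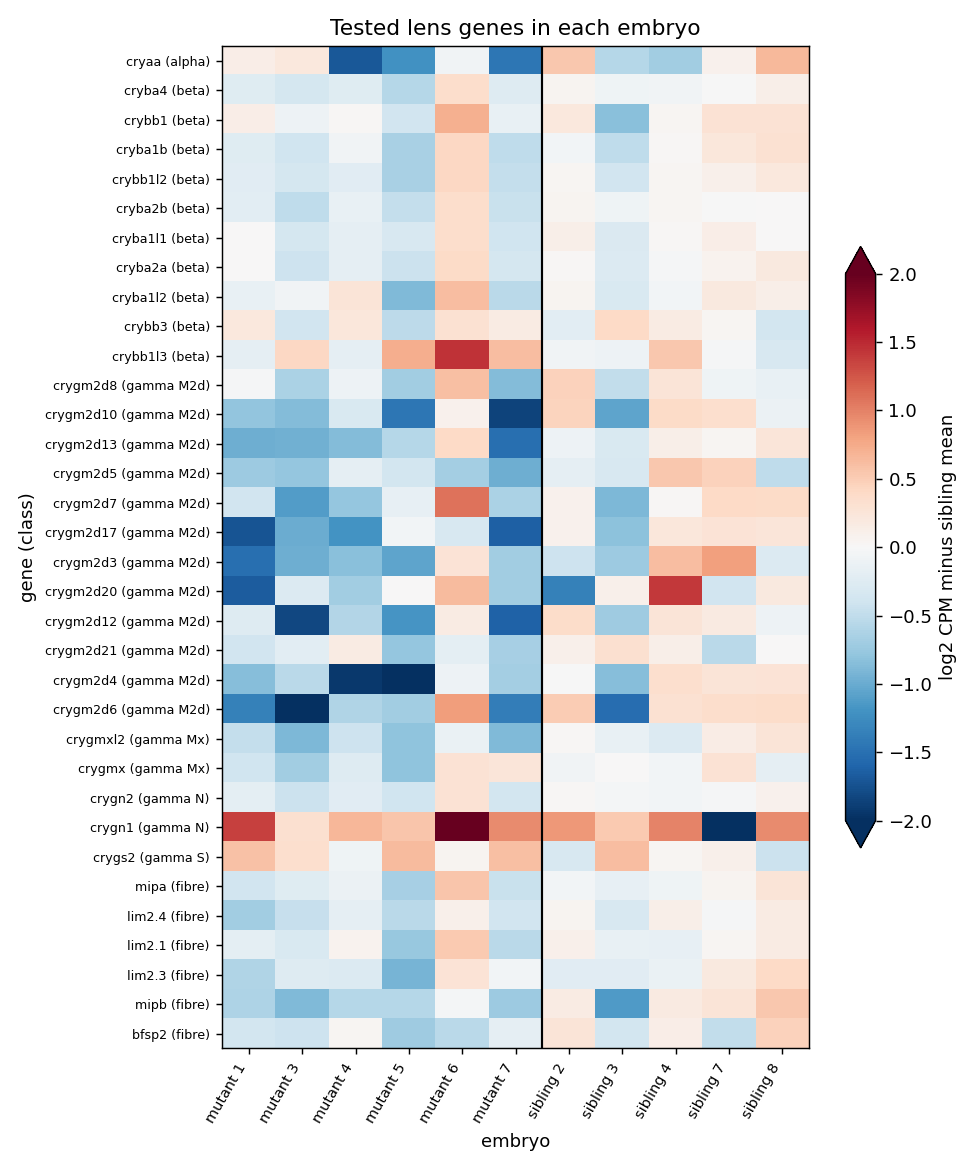
Log2 CPM of the 34 tested lens genes (down the page, by class) in each embryo (across, mutants left of the line), as the difference from the mean of the siblings. Mutant 6 is high in most beta, gamma N and fibre genes and the other mutants are low in most crygm2d genes.

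The spread between embryos of the same group was large for the lens genes, and in the beta and fibre genes much of it came from mutant 6. In 24 of the 34 genes edgeR's estimate of the variation between embryos lay above its trend for genes of like abundance, against 25.7% of all tested genes. Without mutant 6 that was so for 14 of 31, against 24.7% of all genes. By class it was so for 9 of 10 beta, 3 of 6 fibre and 10 of 12 crygm2d genes with all embryos. Without mutant 6 it was so for 3 of 9 beta, 1 of 6 fibre and 8 of 10 crygm2d genes. Single crygm2d genes may share reads, which was not measured, so their variation may not be that between embryos alone. The CV of the beta sum was 26.2% in mutants and 14.6% in siblings, and 11.8% in the 5 mutants without mutant 6. For the fibre sum the values were 30.0% in mutants and 13.0% in siblings, and 13.0% without mutant 6. The crygm2d sum varied more, at 39.6% in mutants and 22.2% in siblings, and at 18.8% without mutant 6.

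Mutant 6 had the highest CPM of all 11 embryos in 17 of the 34 lens genes and the lowest in 0, against the highest in 16.5% and the lowest in 18.1% of all 12301 tested genes. It led in 9 of 10 beta genes, 6 of 17 gamma genes and 2 of 6 fibre genes. Mutant 5 was the lowest embryo in 13 of the 34, against 5.41% of all genes. Among mutants other than mutant 6, 5 lens genes had every mutant below every sibling (cryba2b, cryba4, crygm2d13, crygmxl2 and crygn2) and 0 had every mutant above. Over all tested genes these shares were 0.919% and 0.699%. Leaving out the mutant with the most lens RNA could only raise the count of lens genes with mutants lower, so that count is no independent support. With all 11 embryos, 0 of the 34 lens genes separated the groups, against 0.488% of all genes with mutants lower and 0.455% with mutants higher.

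The labels give about the same age for every embryo and no stage of the lens, so lens age itself was not measured. Ratios of the classes within an embryo do not depend on library scaling. The crygm2d counts were 5.78% of the beta counts in the lowest mutant, 7.74% at the mutant median and 9.18% in mutant 6, the highest. In siblings 2, 3, 4, 7 and 8 they were 11.1, 9.45, 13.6, 10.98 and 9.24% of the beta counts. On counts all 6 mutants lay below all 5 siblings, with mutant 6 and sibling 8 nearly touching. On TPM the groups overlapped, with 7.94 to 12.98% of the beta TPM in mutants and 12.1 to 19.3% in siblings, where mutants 5 and 6 (12.5 and 12.98%) lay above sibling 3 and mutant 6 above sibling 8 (12.9%). On counts the 6 mutants averaged 7.71 ± 1.34%, and the 5 siblings 10.9 ± 1.76%. This was 1 of 6 such ratios, was looked at with the low crygm2d values known, and is given without a test. The ratio of mutant 6 is thus at the upper end of the mutants while its beta and crygm2d sums are far above theirs.

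The other 5 ratios overlapped between the groups on counts. The crygm2d counts came to 32.9 ± 5.77% of the fibre counts in mutants and 43.7 ± 9.59% in siblings. All gamma counts came to 20.7 ± 1.46% of the beta counts in mutants and 24.5 ± 2.17% in siblings. The fibre genes came to 23.5 ± 1.98% in mutants and 25.2 ± 1.90% in siblings, and the gamma N genes to 9.27 ± 0.60% in mutants and 9.52 ± 1.52% in siblings. Alpha counts were 0.663 ± 0.244% of beta counts in mutants and 0.842 ± 0.142% in siblings.

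**Figure D5:**
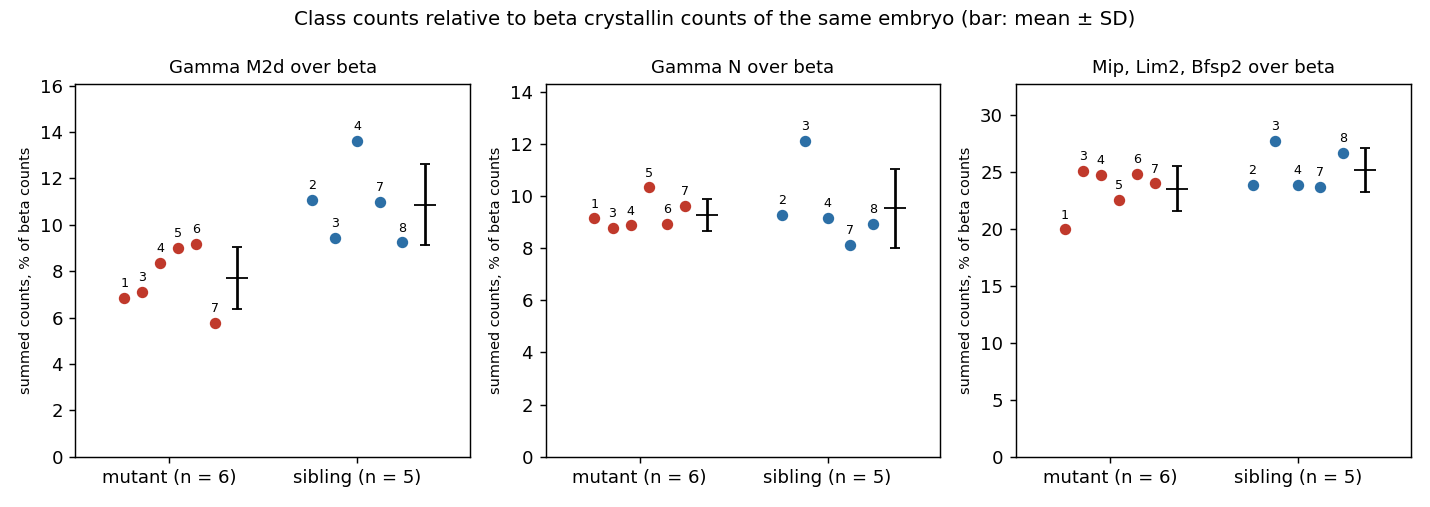
Summed counts of the gamma M2d, gamma N and fibre classes as a percentage of the beta crystallin counts of the same embryo, with mutants (n = 6) left of siblings (n = 5) and bars for the mean ± SD. The gamma M2d share is 5.78 to 9.18% in mutants and 9.24 to 13.6% in siblings on these counts, but the groups overlap when the share is taken from TPM. The other 2 ratios overlap.

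Genes of the lens epithelium and lens regulators were read from a list of their own. Of 18 listed genes 17 were in the table and 16 were tested. By edgeR 0 passed an adjusted p of 0.05, 1 was higher and 0 lower at an unadjusted p under 0.05, 11 had higher and 5 lower fitted values, and the median log2 fold change was 0.05. Over all genes 3.79% were higher and 3.06% lower at that p, and 49.8% had lower fitted values. The genes of lowest p were mafba, a Maf factor gene also known from the hindbrain (0.28 ± 0.10 SE, edgeR adjusted p = 0.634), and prox1a, a factor of fibre differentiation (0.17 ± 0.08 SE). Many genes of this list are also expressed outside the lens. The forkhead gene foxe3, of the lens epithelium, was at 5.50 to 8.95 CPM in mutants and 5.57 to 8.65 CPM in siblings, and pitx3, a homeobox gene needed for the lens, at 24.9 to 32.6 CPM in mutants and 28.6 to 32.8 CPM in siblings. Mutant 6, with the most crystallin RNA, was the lowest of all 11 embryos for both genes. It was the highest for the sum of the list (1015 CPM). The largest part of that sum was on average cdh1 (mean 243 CPM in mutants and 234 CPM in siblings). Among tested genes of this list, mutant 6 was highest for cdh1, six3b and dlx3b and lowest for foxe3, pitx3 and pax6a. Mutant 6 had 16584770 counts in total, where mutants 4 and 5 had 16238368 and 16669330. The lens sums of mutants 6, 4 and 5 were 546, 362 and 279 CPM. Whether RNA quality, depth or embryo age had a part in the lens values of mutant 6 was not tested.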

How the data were processed

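Libraries of 11 single embryos were made, per the labels' protocols, with a TruSeq RNA kit, which keeps no strand information. The authors deposited a table of estimated counts, as whole numbers, and a table of TPM values. Per the submitters' processing notes, RSEM 1.2.18, Bowtie 1.1.1 and CASAVA 1.8.2 were used with the build Zv9, with no role stated for each, and the annotation is not given in the sources used here. Groups and replicate numbers follow the sample titles.

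Mutants and siblings were compared with edgeR 4.0.16 in R 4.3.3 (quasi-likelihood test, TMM, filterByExpr, Benjamini-Hochberg adjustment over all tested genes at 0.05). SE were taken from the F statistic. Log2 CPM used a prior count of 1, and exact permutation tests of its means ran over all splits of the embryos. DESeq2 1.42.0, limma 3.58.1 (voom, or log2 TPM with pseudocounts of 1 and 0.1), other scalings and filters, a block for the replicate number, and repeats without each embryo were run beside it. The test was checked on simulated data. No 2 embryos of a group agreed within sampling noise (chi-square per degree of freedom of 8.03 or more in 25 pairs). The p-values set the difference between groups against the spread between these embryos. Nothing states that embryos came from separate clutches, so the p-values cannot be extended to other clutches. Figures were drawn with matplotlib 3.10.9.

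Genes named with values were all alpha and fibre genes and, in each class, the 4 tested genes of highest mean TPM and the 2 of lowest p. The genes crygmx, crygn1, crygs2 and those named in counts were chosen after their values were seen. So were the connexin genes and the list genes named for mutant 6. Lists of lens regulators, other lens fibre genes, retina, pigment and erythroid genes, and heat shock and chaperone genes were written beside them. The lens genes and all lists were chosen with earlier results of these data known. All 61 names matched the GRCz12tu gene table, which was used only for names and neighbours.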

Additional observations from a re-analysis of the deposited data

Results flagged for a closer look

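In 54 groups of values (each named lens gene, class sum and the crygm2d share, in mutants and in siblings), 11 values lay far from the rest of their group relative to the group's range. Chance sets apart about 1 in 20 groups, and the values below are not independent, since they come from the same libraries.

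Mutant 6 accounts for 10 of the 11, each time as the highest mutant. Its beta sum was 372 CPM, with the next mutant at 253 CPM. Its gamma sum was 79.0 CPM (next mutant 51.9), its gamma N sum 33.2 CPM (next 23.1) and its fibre sum 92.4 CPM (next 61.3). Among single genes, mutant 6 stood apart for cryba2b at 34.7 CPM (next mutant 24.5), cryba4 at 30.3 CPM (next 20.2), crybb1l2 at 70.2 CPM (next 44.7), crygn2 at 30.4 CPM (next 21.7), mipa at 66.0 CPM (next 41.4) and mipb at 5.14 CPM (next 3.54). In mipb this highest mutant still lay below 4 of the 5 siblings. The remaining value was crybb1l3 in sibling 4, at 0.768 CPM, with the next sibling at 0.501 CPM, which rests on 13 counts.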

How the results depend on the processing

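The 10 other settings include the replicate block, which uses few of the embryos, as given below. Under none of these settings, nor with a threshold of 0.1 or any 1 embryo left out, did a lens gene pass the adjusted threshold. With mutants 6 and 7 and sibling 3 left out, a choice made after seeing the data, 1 did (mipb), 24 of 33 lens genes were lower and 1 higher at an unadjusted p under 0.05, edgeR called 34 genes in all, and 12 lens genes lay above the variation trend. The number of lens genes lower at an unadjusted p under 0.05 was 8 to 12 under the other settings and 4 to 18 with 1 embryo left out. The number higher was 0 to 1 in those repeats and 1 at a threshold of 0.1. Over all genes DESeq2 called 43, limma-voom 2 and edgeR at a threshold of 0.1 called 2, and leaving out 1 embryo gave 0 to 24. The number of lens genes above the variation trend was 14 to 25 with 1 embryo left out.

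Leaving out each embryo, the log2 difference of the summed level ran from −0.75 to −0.42 for alpha, −0.29 to −0.09 for beta, −0.54 to −0.35 for gamma, −0.40 to −0.18 for fibre genes and −0.84 to −0.54 for the crygm2d genes, and the difference of the crygm2d share of beta counts from −3.57 to −2.47 percentage points. Of the named genes, 2 changed sign. The log2 fold change of crybb1 ran from −0.14 to 0.11 with 1 embryo left out. It was −0.14 without mutant 6, −0.13 without sibling 3, −0.085 without mutant 7 and sibling 3, and −0.28 without all of these. That of bfsp2 was 0.057 with the replicate block, where only embryos numbered 3, 4 and 7 bear on the difference. Their bfsp2 levels were 0.590, 0.831 and 0.705 CPM in mutants and 0.614, 0.886 and 0.556 CPM in siblings. The block gives no weight to siblings 2 and 8, the highest for this gene at 0.967 and 1.13 CPM. For crybb1 the cause was not tested.

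Replicate numbers 3, 4 and 7 occur in both groups. Deviations of same-numbered embryos correlated at −0.31, −0.19 and −0.14, which shows no likeness within these pairs. These correlations cannot exclude that the numbers reflect a shared clutch or handling. With the replicate number as a block, only the embryos numbered 3, 4 and 7 bear on the difference, as each other number occurs in a single group. This fit could therefore call few genes, and its counts are not comparable with those from all embryos. In it 8 lens genes were lower at an unadjusted p under 0.05, 0 genes were called and 9 lens genes lay above the variation trend. Depth limits the 20 detected genes that could not be tested, and the low counts of cryaa, bfsp2, crybb1l3 and several crygm2d genes.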

Other observations

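Other genes of the eye and of embryo age gave no adjusted p under 0.05 by edgeR or DESeq2. Counts below are at an unadjusted edgeR p under 0.05, where 3.79% of all tested genes were higher and 3.06% lower. Of 14 tested genes of the other lens fibre list, 1 was higher and 1 lower, with 9 higher and 5 lower fitted values (median log2 fold change 0.06). These were hmx4 (0.23 ± 0.08 SE) and gstp1, a glutathione transferase gene (−0.29 ± 0.10 SE). Several genes of that list are also expressed outside the lens, so its median is not that of fibre cells alone. Of its connexin genes, cx23 was at −0.13 ± 0.18 SE, cx44.1 at −0.20 ± 0.14 SE and cx50.5 at −0.51 ± 0.24 SE. The connexin gene gja3 was at 0.25 ± 0.22 SE. Of 13 tested retina and optic cup genes, 0 were higher and 1 lower, with 7 higher and 6 lower fitted values (median 0.02). This was atoh7, a retinal ganglion cell factor gene (−1.10 ± 0.44 SE, edgeR adjusted p = 0.684), and rx1 was at 0.13 ± 0.08 SE. Each library held only 1 to 16 counts of atoh7. Its mean count of 8.27 is too low for the filter that ignores the groups. Of 8 tested genes of the heat shock and chaperone list, which includes the heat shock factor genes hsf1 and hsf2, 1 was higher and 0 lower. Fitted values were higher in 6 and lower in 2 (median 0.10). The genes of lowest p were hspb11 (0.21 ± 0.09 SE) and hsf1 (0.14 ± 0.09 SE).

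Pigment and haemoglobin genes, which rise around this age, were summed per embryo. The 8 pigment genes in the table, all present in every embryo, summed to 253 to 414 CPM in mutants and 284 to 368 CPM in siblings, with mutant 6 the highest of all embryos. Of these genes 0 were higher and 1 lower, with 3 higher and 5 lower fitted values (median −0.07), and those of lowest p were pmelb (−0.27 ± 0.12 SE) and tyrp1b (−0.22 ± 0.12 SE). The 6 erythroid genes summed to 827 to 3943 CPM in mutants and 1784 to 2869 CPM in siblings, with mutant 6 the lowest. Of these 0 were higher or lower, with 3 higher and 3 lower fitted values (median −0.006), and hbbe2 was at −0.14 ± 0.23 SE and slc4a1a at 0.12 ± 0.30 SE. Mutant 6 was also the lowest embryo for the sum of the other lens fibre list (1575 CPM) and of the heat shock and chaperone list (6654 CPM). On average most of the first sum came from hsp90aa1.1 (mean 1144 CPM in mutants and 1051 CPM in siblings). Most of the second came from hspa8 (7472 CPM in mutants and 7737 CPM in siblings). Among tested genes of the fibre list, mutant 6 was highest for cx23, caprin2, jag1b, fgf3 and hmx4 and lowest for unc45b, hsp90aa1.1 and jag1a. The part of embryo age, RNA quality or the mix of tissues in the lens values was not tested.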
